A study of Homo sapiens with 38 samples.

Results

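The exit of human naive pluripotent stem cells from their culture medium, PXGL, was followed here in 10 genes known as transcriptional targets of the FGF–ERK pathway. They were taken from the deposited count table by symbol, from a list of such targets drawn up with earlier results of these data known: ETV1, ETV4 and ETV5; EGR1, FOS, FOSL1, JUN and MYC; and IER3 and PHLDA1. All 10 of them were among the 57133 genes of the table, and all 10 passed the filter on low counts that left 16674 genes tested. RNA was sequenced from the 3′ end of polyadenylated transcripts in 38 libraries of Shef6, an established human embryonic stem cell line, forming 19 groups of 2 libraries each. Every culture had been adapted to grow in the naive state without feeder cells, on a serum coating.

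Naive cells (day 0) were in PXGL, which holds the MEK inhibitor PD0325901, the tankyrase inhibitor XAV939, the protein kinase C inhibitor Gö6983 and the cytokine LIF. The labels name the condition PXGLY and the time d0, but the library names of the naive samples of the second experiment carry d4, so that their day is uncertain. What the added Y stands for is not given in the labels. In the first experiment, Ex1, naive cells were sampled on serum coating and on Geltrex, a basement membrane extract. The same cells were plated on Geltrex into N2B27 or into E8, and were sampled on days 2, 3, 4, 6 and 8. N2B27 is a basal medium that holds the N2 and B27 supplements, and no FGF2 or Activin A was added to it in Ex1. A further set was plated into mTeSR and sampled on days 4, 6 and 8. E8 and mTeSR both hold FGF2 and a ligand of the Activin/Nodal/TGF-β branch. The second experiment, Ex2, comprised naive cells on Geltrex and day 4 cultures in N2B27, in N2B27 with the tankyrase inhibitor (XAV), and in N2B27 with FGF2, Activin A and the tankyrase inhibitor (FAX). Each medium used after PXGL lacked the MEK inhibitor, but the cells had also lost Gö6983 and LIF, had been dissociated and replated with a ROCK inhibitor, and, except in XAV and FAX, had lost the tankyrase inhibitor. Release from MEK inhibition therefore cannot be told apart from those changes or from time in culture. Per the study's methods, naive cells were also dissociated when passaged and then given a ROCK inhibitor, so that this step was not particular to the later cells. All libraries came from 1 line, and the labels do not say whether the libraries of a group were separate cultures. The study's text calls these libraries technical replicates in most places and biological replicates elsewhere, so that p-values measure the spread between these libraries, which may be technical.

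In this pathway, FGF bound to its receptor activates RAS and the kinases RAF, MEK and ERK in turn. Active ERK phosphorylates ternary complex factors of the ETS family, which sit with serum response factor on CArG boxes, and immediate early genes such as EGR1 and FOS are then transcribed without new protein synthesis. ETV1, ETV4 and ETV5, the PEA3 group of ETS factors, are widely read as the output of sustained FGF signalling in embryos. Naive human cells are held with a MEK inhibitor, and leaving the naive state for a formative or primed state, called capacitation, begins once it is withdrawn. ERK activity itself was not measured in these libraries.

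Library totals ran from 3038046 to 5612354 counts (median 4427277), and levels are given in counts-per-million units (CPM) relative to the library total. The limit that a count of 0 allows, 3 counts, corresponded to 0.535 to 0.987 CPM. Both libraries had their replicate as the nearest of all libraries in 12 groups, 1 of the 2 in 6 groups, and neither in E8 day 3. The summed level of 8 naive markers, KLF17 and KLF4 among them, was 1294 to 1788 CPM in the 6 naive libraries and 410.2 to 1122 CPM in the 32 others, whereas 8 primed or formative markers summed to 29.6 to 41.1 CPM and 258 to 758 CPM. Single naive markers could overlap where the sum did not. KLF17 was at 35.5 to 125 CPM in naive libraries and 15.5 to 107 CPM in the others, and KLF4 at 57.3 to 180 and 9.01 to 92.2 CPM. SUSD2, another of these markers, had a higher median after PXGL, 99.96 CPM beside 90.7 CPM. In bulk samples, fewer cells of a type and less RNA per cell cannot be told apart.

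Promoter sequences are shown for EGR1, FOS and JUN, 3 immediate early transcription factors whose levels after PXGL took different courses. Each is the 250 bases before the annotated start in RefSeq (GRCh38.p14), read 5′ to 3′ on the strand of the gene: EGR1 at chr5:138465229-138465478, plus strand; FOS at chr14:75278578-75278827, plus strand; JUN at chr1:58784048-58784297, minus strand. Capitals mark matches to the motifs searched on both strands. These were the CArG box of serum response factor, the cyclic AMP response site TGACGTCA and its short form CGTCA, the AP-1 site TGANTCA, the JUN-type site TGACATCA, the EGR-type site GCGGGGGC and the ETS core CCGGAA.
EGR1: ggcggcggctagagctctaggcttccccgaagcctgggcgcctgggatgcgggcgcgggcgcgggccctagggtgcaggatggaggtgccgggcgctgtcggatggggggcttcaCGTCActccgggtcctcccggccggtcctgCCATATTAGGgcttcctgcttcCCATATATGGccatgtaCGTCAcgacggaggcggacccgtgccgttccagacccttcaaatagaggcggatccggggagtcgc
FOS: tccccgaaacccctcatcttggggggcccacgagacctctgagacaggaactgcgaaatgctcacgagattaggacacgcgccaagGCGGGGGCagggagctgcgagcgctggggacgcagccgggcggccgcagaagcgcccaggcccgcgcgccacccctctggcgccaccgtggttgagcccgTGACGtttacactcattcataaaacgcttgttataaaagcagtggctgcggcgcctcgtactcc
JUN: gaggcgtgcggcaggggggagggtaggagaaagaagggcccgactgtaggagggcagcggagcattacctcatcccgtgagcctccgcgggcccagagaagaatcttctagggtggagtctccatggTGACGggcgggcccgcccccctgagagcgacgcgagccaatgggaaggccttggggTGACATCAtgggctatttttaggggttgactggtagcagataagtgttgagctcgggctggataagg
The EGR1 window held 2 CArG boxes, CCATATTAGG and CCATATATGG, whose first bases lay 105 and 83 bases before the start. The windows of FOS and JUN held none, but bases more than 250 before the start were not searched. Whether these genes have a CArG box further upstream is therefore not shown. A CArG box was found in 1.16% of the 35116 promoter windows of the same length. EGR1 also held CGTCA at 135 and 66 bases before the start, FOS held TGACG, the reverse complement of CGTCA, at 64 and GCGGGGGC at 164, and JUN held TGACG at 123 and TGACATCA at 67. CGTCA on either strand occurred in 21.2% of all windows, GCGGGGGC in 8.01% and TGACATCA in 2.37%. The letters of TGACGTCA, TGANTCA and CCGGAA, present in 1.65%, 6.57% and 14.5% of all windows, were not in these 3 windows, while CCGGAA was found in that of PHLDA1 and at 3 of the 6 annotated starts of ETV1. Some of these ETV1 windows overlap, so that the same CCGGAA site was found from more than a single start. The table used held windows for 5 of the 10 genes. A match describes the letters and is not a measured binding site, and none of the motifs overlapped another in the sequences printed.

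Compared with the 6 naive libraries pooled, nearly all of the 10 genes were higher in every medium and on every day. Of the 150 pairs of a gene and a comparison (10 genes, 15 combinations of medium and day), 143 were called higher (95.3%) and 0 lower (0 also at an unadjusted p under 0.05, and 0 lower by DESeq2), where a call required a Benjamini–Hochberg adjusted p under 0.05 over all tested genes and an absolute log2 fold change over 1 in edgeR's quasi-likelihood test. Over all tested genes, 13.7% of such pairs were called higher and 7.18% lower. The same holds by comparison: 9 of the 10 genes were called higher on day 2 of N2B27, where 9.86% of all genes were called higher, 9 on day 3 (9.78%), and 10 on days 4, 6 and 8 (12.5%, 16.4% and 16.9%). In E8, 8 were called on day 2 (13.9%), 9 on day 3 (11.8%), and 10 on days 4, 6 and 8 (13.6%, 15.8% and 18.2%). In mTeSR all 10 were called on days 4, 6 and 8 (12.8%, 15.7% and 16.9%), and 9 each in XAV (10.5%) and FAX (10.3%). The median log2 fold change of the 10 genes lay between 3.45 and 4.17 in the 15 comparisons, beside medians between -0.03 and 0.02 over all tested genes. The 15 comparisons share the naive libraries and are therefore not independent of one another. In each of the 15, 8 of the 10 genes were called higher, as were 575 (3.45%) of all tested genes. The exceptions were JUN, which was called in 9 of 15, and IER3, which was called in 14. For JUN in XAV and FAX this depended on the pooled reference. Against the naive libraries of Ex2 alone, a reference added after the values were seen, JUN was called higher in both, at 2.17 and 2.19.

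**Figure D1:**
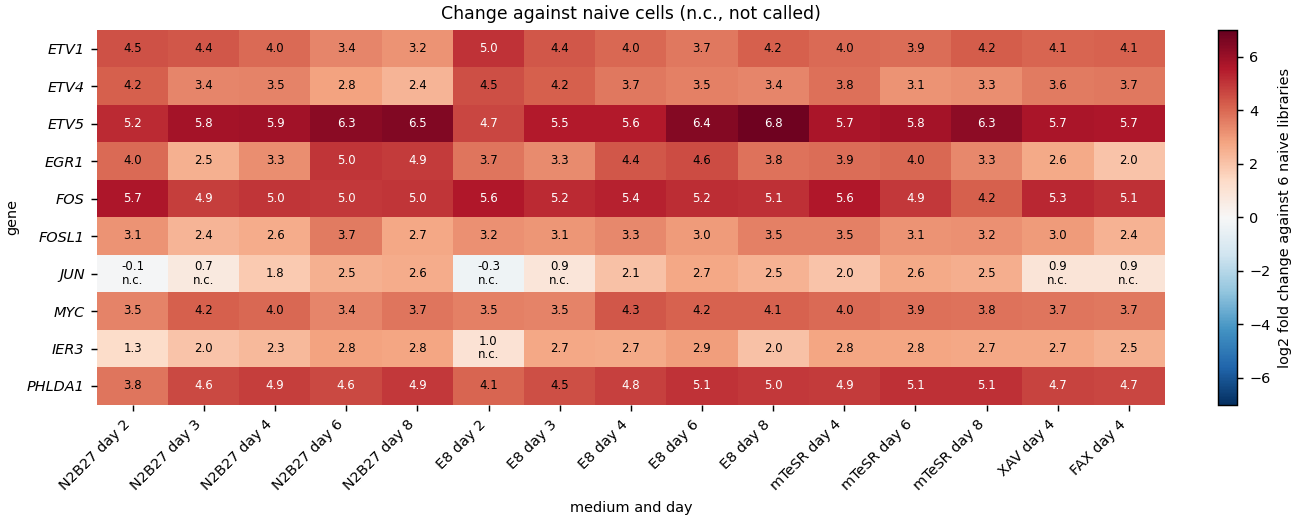
Heat map of the log2 fold change of each of the 10 genes (vertical axis) against the 6 naive libraries, for each medium and day (horizontal axis); colour gives the log2 fold change from edgeR and n.c. marks a pair that was not called. The 7 uncalled pairs are 6 of JUN, in N2B27 and E8 on days 2 and 3 and in XAV and FAX, and IER3 in E8 on day 2.

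Among the PEA3 group, ETV5 (chr3:186046314-186110318 in GRCh38, minus strand) had the largest fold change against naive cells in 14 of the 15 comparisons, the exception being day 2 of E8 with a log2 fold change of 4.67 ± 0.25 beside 5.05 ± 0.17 for ETV1. Its lowest, median and highest levels in the naive libraries were 0, 1.10 and 1.79 CPM. After 2 days in N2B27 it stood at 40.7 and 36.7 CPM, and by day 8 at 102 and 98.9 CPM. The mean was higher at each later sampled day in N2B27, through 54.1 and 65.4 on day 3, 67.4 and 74.9 on day 4 and 94.2 and 81.03 CPM on day 6, and every library after PXGL lay above every naive one. In E8 the level was 23.9 and 25.1 CPM on day 2, below both N2B27 libraries of that day, and 128 and 115 CPM on day 8, above both. The log2 fold change against naive was 5.20 ± 0.22 (SE) on day 2 of N2B27 and 6.48 ± 0.20 on day 8 (edgeR adjusted p = 2.34e-19 and 7.82e-24). Because the naive libraries held only 27 counts of ETV5 in all, the ratio of pooled CPM is given with its 95% counting interval: 95.5-fold on day 8 (65.2 to 146). Reads without molecular identifiers are not independent molecules, so these intervals cover counting error only.

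ETV1 (chr7:13891229-13991425, minus strand) moved in the other direction after its first rise in N2B27. In the naive libraries its lowest, median and highest levels were 1.92, 5.63 and 7.06 CPM. It was at 119.95 and 96.5 CPM on day 2 of N2B27, at 84.6 and 94.5 CPM on day 4 of Ex1 and at 41.5 and 52.7 CPM on day 8. Day 2 was thus the highest and day 8 the lowest group in N2B27, with the day 8 libraries still above all naive ones. E8 began higher, at 147 and 153 CPM on day 2, passed through 67.9 and 62.4 CPM on day 6 and was back at 99.6 and 86.3 CPM on day 8. In mTeSR no fall was seen from day 4, at 84.3 and 75.1 CPM, to day 8, at 91.9 and 99.6 CPM. Against the pooled naive cells the log2 fold change ran from 3.16 on day 8 of N2B27 to 5.05 on day 2 of E8, with edgeR adjusted p at or below 6.71e-16 in all 15 comparisons. With the Ex2 naive libraries alone as reference, added after the values were seen, it was 5.19 in XAV, 5.22 in FAX and 4.90 on day 4 of N2B27.

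ETV4 (chr17:43527844-43579620, minus strand) resembled ETV1. Its naive levels had a lowest, median and highest of 5.02, 6.73 and 11.8 CPM. In N2B27 it stood at 105 and 155 CPM on day 2, 66.1 and 89.1 CPM on day 3 and 38.1 and 42.9 CPM on day 8, and in E8 at 143 and 163 CPM on day 2 and 75.3 and 80.9 CPM on day 8. The 2 libraries of day 2 in N2B27 differed more from each other than those of day 8, but both lay above both day 8 libraries. The log2 fold change against naive was between 2.39 and 4.53, the lowest on day 8 of N2B27 and the highest on day 2 of E8 (edgeR adjusted p of at most 1.15e-11). The 3′ end of ETV4 is overlapped on the opposite strand by DHX8, an RNA helicase gene, and whether counting used strand is not given in the sources used here. DHX8 was at 17.3 to 27.6 CPM in naive libraries and 12.03 to 36.0 CPM afterwards, and its log2 fold changes in the 15 comparisons, -0.48 to 0.80, were all under the fold threshold.

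EGR1 (chr5:138465479-138469303, plus strand), the zinc finger factor whose promoter is printed above, was near the detection limit in naive cells, with 2 or 3 counts in each library (0.442 to 0.683 CPM). It then rose, dipped and rose again in N2B27, with 9.06 and 9.69 CPM on day 2, 3.60 and 3.19 CPM on day 3, 8.02 and 7.84 CPM on day 4 of Ex1, 20.6 and 19.6 CPM on day 6 and 21.2 and 17.6 CPM on day 8. The day 3 libraries held 15 and 16 counts, and no library of the neighbouring days in Ex1 overlapped them. In E8 days 2 and 3 lay closer together: levels were 6.68 and 7.97 CPM on day 2, 5.996 and 5.91 CPM on day 3, 16.03 and 12.9 CPM on day 6 and 8.22 and 8.73 CPM on day 8. Against the pooled naive counts, 15 in all, the ratio was 5.80-fold on day 3 of N2B27 (95% counting interval 3.04 to 11.6) and 34.5-fold on day 6 (20.4 to 62.8). It was lowest in FAX, at 3.28 and 1.63 CPM, or 4.16-fold over naive (2.02 to 8.73; edgeR log2 fold change 2.02 ± 0.47, adjusted p = 0.000959). Without FAX replicate 1 that call was lost, at a log2 fold change of 1.46 (adjusted p = 0.123).

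FOS (chr14:75278826-75282230, plus strand), which pairs with JUN proteins in the AP-1 complex, was higher by day 2 and was called at none of the later steps between days. The naive libraries held 1 to 5 counts each, with a lowest, median and highest of 0.221, 0.681 and 1.14 CPM. Day 2 of N2B27 gave 46.7 and 22.1 CPM and day 8 18.5 and 27.4 CPM, while day 2 of E8 gave 29.6 and 30.7 CPM and day 8 32.3 and 15.3 CPM. Replicates of FOS differed by as much as the days did, and each of the 32 libraries after PXGL lay above each naive one. The lowest group was mTeSR day 8, at 11.96 and 13.6 CPM. Log2 fold changes against naive cells were between 4.20 and 5.67 (edgeR adjusted p of at most 4.36e-11).

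FOSL1 (chr11:65892049-65900573, minus strand), which encodes FRA1, another partner of JUN, stood at 1.25 to 4.94 CPM after PXGL, or 5 to 23 counts a library. Both naive libraries on serum held 0 counts and the other 4 held 1 or 2, so that its fold changes rest on 7 naive counts. The ratio of pooled levels was 9.38-fold on day 2 of N2B27 (95% counting interval 3.92 to 25.8) and 12.7-fold on day 8 of E8 (5.50 to 33.9). All 15 comparisons were called, with edgeR adjusted p of at most 0.00132, but in FAX the call was lost when the naive libraries of Ex2 alone served as reference (log2 fold change 1.34 ± 0.64, adjusted p = 0.140).

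JUN (chr1:58776845-58784048, minus strand), the DNA-binding partner of FOS in AP-1, was called higher from day 4 on in N2B27 and E8, and not on days 2 and 3. Naive cells already held it, with 27.1 and 34.2 CPM on serum and 19.9 and 24.03 CPM on Geltrex in Ex1, and 6.58 and 9.88 CPM on Geltrex in Ex2. In N2B27 it was at 20.1 and 19.2 CPM on day 2, 28.4 and 37.1 CPM on day 3, 76.6 and 85.9 CPM on day 4 of Ex1, 131 and 115 CPM on day 6 and 132 and 133 CPM on day 8. The day 2 libraries thus lay within the naive range, and from day 4 onward all N2B27 libraries lay above it. The course in E8 was alike, with 13.4 and 16.8 CPM on day 2, 30.4 and 43.4 CPM on day 3, 83.8 and 90.5 CPM on day 4 and 137 and 138 CPM on day 6. Against naive cells the log2 fold change was -0.06 ± 0.27 on day 2 of N2B27 (edgeR adjusted p = 0.888), 0.67 ± 0.25 on day 3 (adjusted p = 0.0367) and 1.85 ± 0.19 on day 4 (adjusted p = 5.48e-10). In E8 it was -0.31 ± 0.30 on day 2 (adjusted p = 0.408) and 0.86 ± 0.24 on day 3 (adjusted p = 0.00591), neither of which was called. The call on day 3 of E8 depended on single libraries, since the value was 1.07 and called without serum replicate 2, and 1.06 and called without replicate 1 of E8 day 3. The values of day 2 depended on the naive reference. In N2B27 the log2 fold change ran from -0.59 against the serum libraries alone (edgeR adjusted p = 0.103) to 0.16 without serum replicate 2. In E8 both day 2 libraries lay below all 4 naive libraries of Ex1, with -0.64 against these 4 (edgeR adjusted p = 0.00474) and -0.84 against serum alone (adjusted p = 0.0181), still under the fold threshold.

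MYC, the growth-promoting basic helix-loop-helix factor, was at 1 to 15 counts in naive libraries, with a lowest, median and highest of 0.329, 1.69 and 3.42 CPM. It reached 26.8 and 15.1 CPM by day 2 and 31.7 and 36.9 CPM by day 3 of N2B27, and 26.7 and 13.9 CPM and 36.1 and 41.3 CPM on days 2 and 4 of E8. The day 2 libraries of both media differed between replicates by close to the difference between days, but none overlapped the naive range. The log2 fold change against naive lay between 3.44 and 4.34 (edgeR adjusted p of at most 1.70e-11). These values rest on naive libraries that differed among themselves, from 3.42 and 3.07 CPM on serum to 0.329 and 0.549 CPM on Geltrex in Ex2. Against the Ex2 naive libraries alone, which held 1 and 2 counts, a reference added after the values were seen, the log2 fold change was 5.72 in XAV, 5.68 in FAX and 6.01 on day 4 of N2B27.

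IER3 (chr6:30743199-30744548, minus strand), an ERK-responsive survival factor, already stood at a lowest, median and highest of 13.7, 16.1 and 19.6 CPM in naive cells. It increased to 32.4 and 45.98 CPM on day 2 of N2B27, 75.9 and 84.4 CPM on day 4 of Ex1 and 133 and 103 CPM on day 8. E8 was low on day 2, at 28.6 and 29.8 CPM, and by day 3 was at 109 and 100.04 CPM. All of these lay above the naive range, the day 2 libraries of E8 by the least. There the log2 fold change against naive was 0.99 ± 0.21 (edgeR adjusted p = 0.000218), just under the fold threshold. It was called in 10 of 18 alternatives, where it ran from 0.85 to 1.09. On day 2 of N2B27 it was 1.30 ± 0.19, or 0.98 without replicate 2. In E8 the day 8 libraries stood apart from each other, at 46.5 and 87.96 CPM. The 3′ end of IER3 is overlapped on the opposite strand by IER3-AS1, which held at most 2 counts in a naive library and 3 in any other.

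PHLDA1 (chr12:76025447-76031776, minus strand), a pleckstrin homology-like domain gene induced by growth factors, was at a lowest, median and highest of 3.02, 7.01 and 9.11 CPM in naive cells. It rose to 98.8 and 80.7 CPM on day 2 of N2B27, 153 and 176 CPM on day 3 and 209 and 229.5 CPM on day 8, and to 96.1 and 112 CPM and 218 and 207 CPM on days 2 and 8 of E8. Its log2 fold change against the pooled naive cells was between 3.75 and 5.13 in the 15 comparisons (edgeR adjusted p of at most 3.46e-20), the lowest on day 2 of N2B27 and the highest on day 6 of mTeSR. With the Ex2 naive libraries alone as reference, added after the values were seen, it was 5.44 in XAV, 5.38 in FAX and 5.74 on day 4 of N2B27. No library after PXGL came near the naive range.

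**Figure D2:**
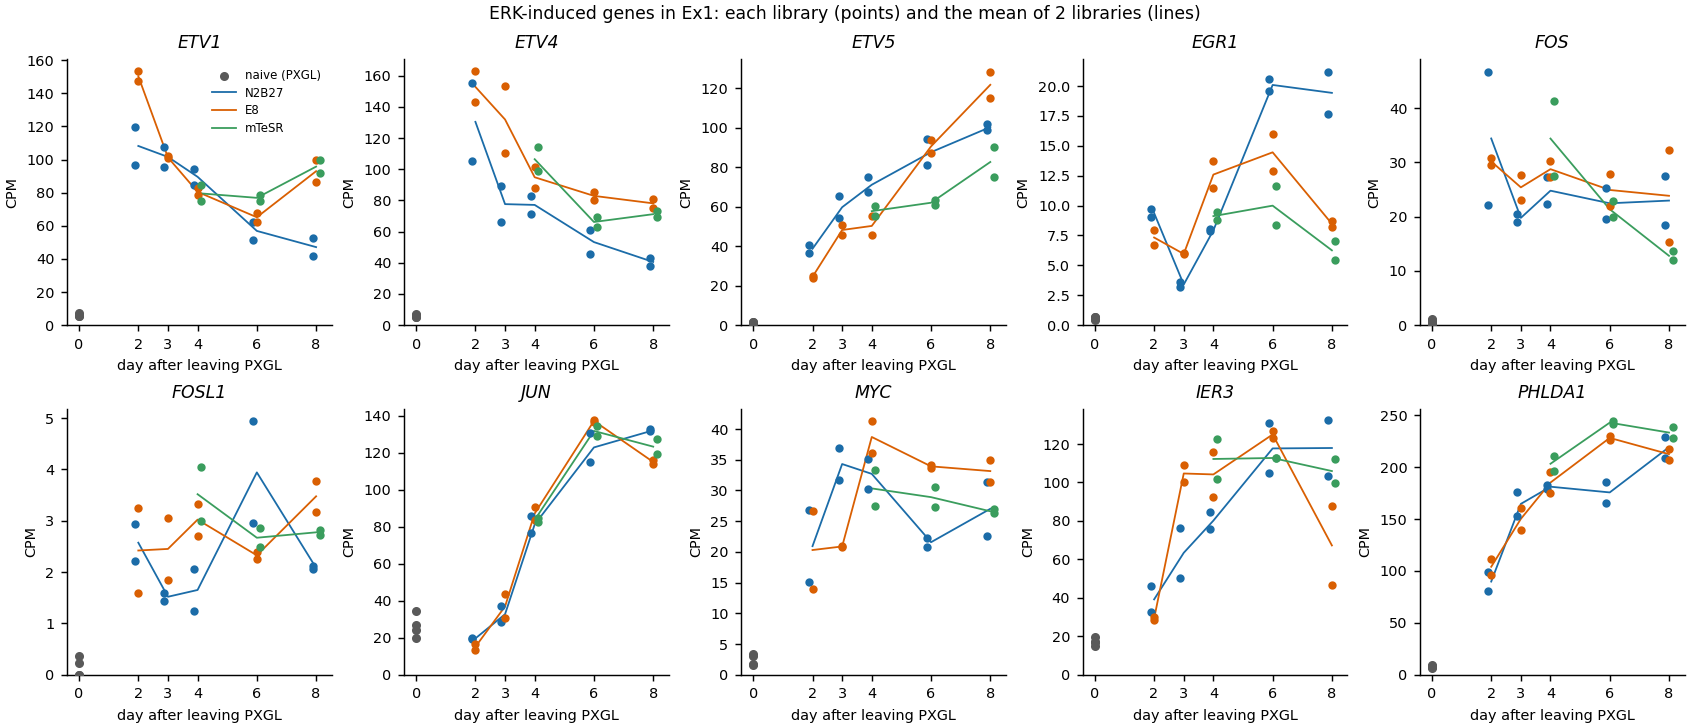
Level of each of the 10 genes in CPM (vertical axes, each from 0) by day in Ex1 (horizontal axis), with naive libraries at day 0; points are single libraries and lines join the means of the 2 libraries in N2B27, E8 and mTeSR. In N2B27 and E8, ETV1 and ETV4 are highest on day 2 and lower later, and ETV5, IER3 and PHLDA1 are higher on days 4 and 6 than on day 2. In JUN both libraries of N2B27 and of E8 lie above the naive range only from day 4.

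The courses after day 2 were compared between consecutive sampled days within a medium in Ex1. Of 100 pairs of a gene and a step, 9 were called, 8 higher and 1 lower, where over all tested genes 1.75% of such pairs were called higher and 0.769% lower. In N2B27, EGR1 fell by 1.47 on the log2 scale from day 2 to 3 (SE 0.30, edgeR adjusted p = 0.00158; 1.16% of all genes were called lower at this step). From day 3 to 4, JUN rose by 1.23 ± 0.14 (edgeR adjusted p = 1.47e-06) and EGR1 by 1.15 ± 0.30 (adjusted p = 0.0266), where 0.798% of all genes were called higher. From day 4 to 6, EGR1 rose by 1.33 ± 0.24 (edgeR adjusted p = 0.000206) and FOSL1 by 1.24 ± 0.40 (adjusted p = 0.0378), beside 3.08% of all genes. In E8, IER3 rose by 1.72 ± 0.23 and JUN by 1.17 ± 0.18 from day 2 to 3 (edgeR adjusted p = 4.58e-06 and 3.18e-05), beside 4.32% of all genes called higher. From day 3 to 4 of E8, JUN rose by 1.20 ± 0.14 and EGR1 by 1.05 ± 0.26 (edgeR adjusted p = 1.42e-06 and 0.0274), beside 0.69% of all genes. Fitted to the compared libraries alone, 4 of these 9 calls remained. Those lost were JUN from day 3 to 4 in E8 (1.21, edgeR adjusted p = 0.116), EGR1 from day 2 to 3 in N2B27 (-1.49, adjusted p = 0.109), EGR1 from day 3 to 4 in both media and FOSL1. Both EGR1 calls from day 3 to 4 were also lost with no filter and with DESeq2 (adjusted p = 0.0739 and 0.0704 in N2B27, 0.0700 and 0.0909 in E8), and that of FOSL1 with no filter (adjusted p = 0.202). The EGR1 calls from day 3 to 4 and the FOSL1 call were lost when single libraries were left out, with log2 fold changes of 1.04 to 1.25 for EGR1 in N2B27, 0.92 to 1.17 for EGR1 in E8 and 0.81 to 1.60 for FOSL1. JUN from day 2 to 3 of E8 was at 0.91 without replicate 2 of day 3.

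Day 8 was also set against day 2, a comparison added after the values were seen. In N2B27, 2 of the 10 genes were called lower on day 8, ETV1 by a log2 fold change of -1.29 ± 0.13 and ETV4 by -1.79 ± 0.18, while ETV5 (1.27 ± 0.13), JUN (2.65 ± 0.15), IER3 (1.49 ± 0.21) and PHLDA1 (1.19 ± 0.11) were called higher, where 21.9% of all genes were called in either direction. In E8, ETV4 was called lower (-1.12 ± 0.17) and ETV5 (2.16 ± 0.14), JUN (2.77 ± 0.17) and IER3 (1.03 ± 0.23) higher, beside 28.2% of all genes. ETV4 and ETV5 therefore moved in opposite directions in both media. ETV1 (-0.84 ± 0.13) and PHLDA1 (0.88 ± 0.11) did not pass the fold threshold in E8. The IER3 libraries of E8 day 8 stood apart, at 46.5 and 87.96 CPM, and these added comparisons were not repeated with libraries left out. The change of ETV5 was larger in E8 than in N2B27 by 0.89 ± 0.19 (edgeR adjusted p = 0.00329), under the fold threshold. Other genes moved over the same N2B27 libraries. Primitive streak and mesoderm markers summed to 10.7 and 6.09 CPM on day 2 and 301 and 232 CPM on day 8. Endoderm and hypoblast markers went from 6.04 and 6.09 CPM to 177 and 161 CPM, and heat shock genes from 8265 and 9350 CPM to 5628 and 5419 CPM. Their part in these changes was not tested.

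An interaction of medium and day tested for any difference in shape between the N2B27 and E8 courses, from day 2 through day 8. At an edgeR adjusted p under 0.05, 6 of the 10 genes and 11% of all tested genes differed: ETV1 (adjusted p = 0.000282), EGR1 (0.00122), ETV5 (0.00276), IER3 (0.00303), MYC (0.0102) and PHLDA1 (0.0416). For FOS, JUN, ETV4 and FOSL1 the adjusted p was 0.883, 0.319, 0.184 and 0.174. For ETV1 and EGR1 the media lay furthest apart on day 8, with log2 fold changes of E8 against N2B27 of 1.05 ± 0.13 and -1.12 ± 0.24. ETV5 went from -0.54 ± 0.15 on day 2 to 0.35 ± 0.12 on day 8, and MYC from -0.70 ± 0.20 on day 3 to 0.72 ± 0.20 on day 6. IER3 was furthest above N2B27 on day 3 (0.73 ± 0.20) and furthest below it on day 8 (-0.76 ± 0.20). PHLDA1 had its largest difference on day 6, at 0.44 ± 0.10. Apart from ETV1 and EGR1 on day 8, none of these single-day values passed the fold threshold.

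Between media at equal days of Ex1, few of the 10 genes were called. Of 110 pairs of a gene and a comparison, 5 were called (4.55%), all on day 8 and all against N2B27, where 1.61% of all such pairs were called higher and 1.64% lower. ETV1 stood at 41.5 and 52.7 CPM in N2B27, 99.6 and 86.3 CPM in E8 and 91.9 and 99.6 CPM in mTeSR on that day. All E8 and mTeSR libraries lay above both N2B27 libraries, by log2 fold changes of 1.05 ± 0.13 and 1.08 ± 0.14 (edgeR adjusted p = 8.17e-07 and 1.91e-06). ETV4 was called higher in E8, by 1.01 ± 0.18 (edgeR adjusted p = 0.000149), and in mTeSR it was at 0.87 ± 0.19, below the fold threshold. EGR1 went the other way, at 21.2 and 17.6 CPM in N2B27, 8.22 and 8.73 CPM in E8 and 5.44 and 7.07 CPM in mTeSR. Its log2 fold change was -1.12 ± 0.24 in E8 and -1.57 ± 0.26 in mTeSR (edgeR adjusted p = 0.000936 and 0.000106). At day 8 the background was 3.33% called higher and 3.96% lower in E8, and 1.65% and 2.15% in mTeSR. In mTeSR against E8, 0 of 30 pairs were called by edgeR or by DESeq2, with 6 at an unadjusted edgeR p under 0.05, where 0.084%, 1.1% and 5.31% of all genes were called on days 4, 6 and 8.

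Of these 5 calls, only that of EGR1 in mTeSR held when each library was left out in turn. Without replicate 1 of N2B27 day 8, the log2 fold changes were 0.91 for ETV1, 0.94 for ETV4 and -0.97 for EGR1 in E8, and 0.93 for ETV1 in mTeSR, each short of the fold threshold. Scaled to library totals in place of TMM factors, ETV1 was at 0.98 and ETV4 at 0.94 in E8. Markers of other cell types differed between the same groups. Primitive streak and mesoderm markers summed to 232 and 301 CPM in the N2B27 libraries of day 8, 35.1 and 37.97 CPM in E8 and 148 and 193 CPM in mTeSR. Endoderm and hypoblast markers summed to 161 and 177 CPM, 18.2 and 22.6 CPM and 83.2 and 85.4 CPM, and trophectoderm markers to 79.95 and 95.1 CPM, 23.4 and 25.5 CPM and 22.6 and 23.1 CPM, in the same order. Their part in the differences of ETV1, ETV4 and EGR1 was not tested.

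**Figure D3:**
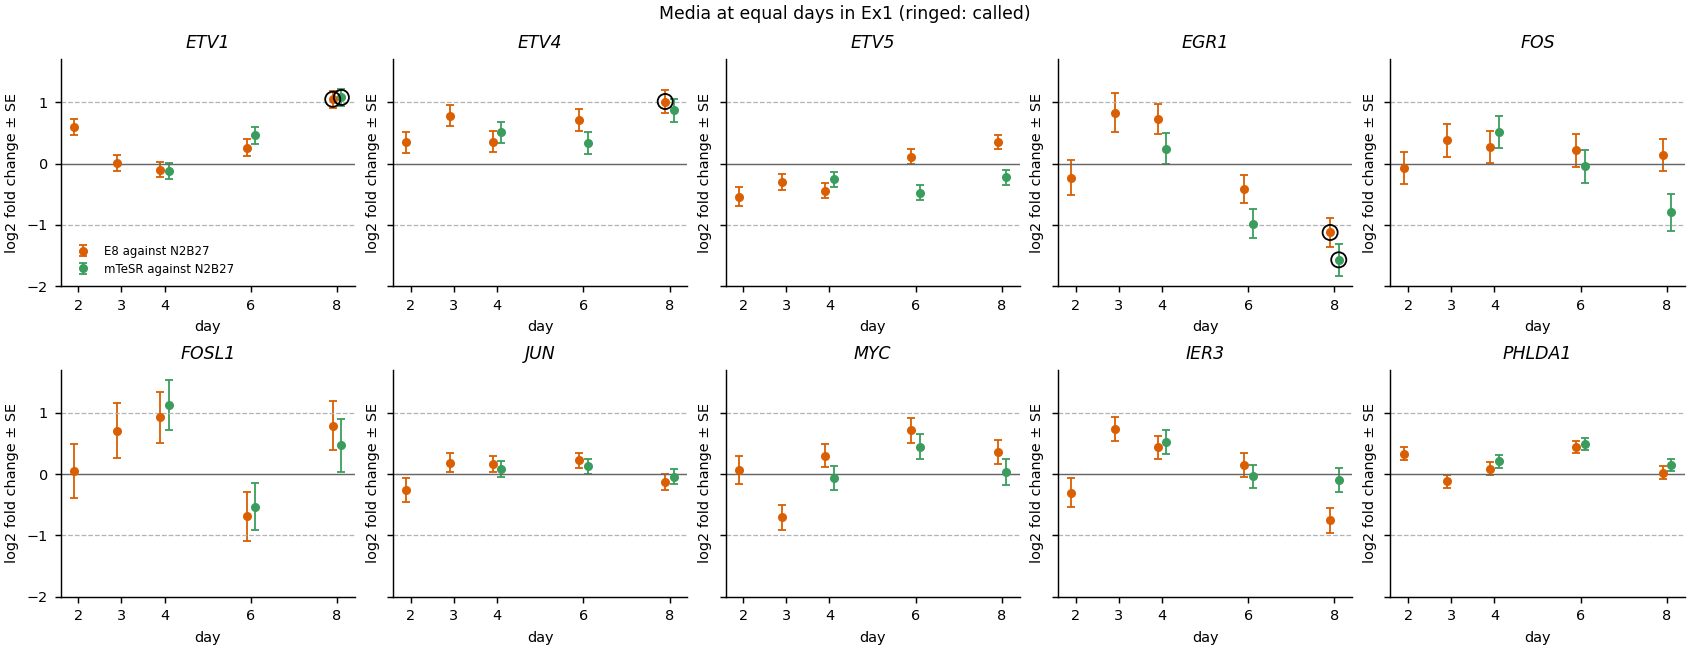
Log2 fold change of each of the 10 genes in E8 and in mTeSR against N2B27 of the same day in Ex1 (vertical axis) by day (horizontal axis), with bars of 1 SE from edgeR; ringed points were called and dashed lines mark the fold threshold of 1 in each direction. The 5 ringed points are ETV1 in both media, ETV4 in E8 and EGR1 in both media, all on day 8.

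In Ex2, the tankyrase inhibitor alone (XAV) or with FGF2 and Activin A (FAX) was compared with unsupplemented N2B27 on day 4. Of the 10 genes in 3 comparisons, 0 were called by edgeR or by DESeq2 (0.306% of all such pairs), with 7 at an unadjusted edgeR p under 0.05. JUN was lower in both supplemented media without passing the fold threshold: it was at 71.8 and 71.1 CPM in N2B27, 38.5 and 38.6 CPM in XAV and 39.4 and 37.99 CPM in FAX. The N2B27 libraries did not overlap the others, and the log2 fold change was -0.90 ± 0.14 in XAV and -0.88 ± 0.14 in FAX (edgeR adjusted p = 0.000215 and 0.000677). FAX and XAV differed by 0.02 ± 0.15 for JUN. Over the same libraries, fibroblast markers summed to 83.3 and 84.3 CPM in N2B27, 56.9 and 64.9 CPM in XAV and 60.6 and 67.7 CPM in FAX, and trophectoderm markers to 37.1 and 45.4 CPM, 22.4 and 22.7 CPM and 31.7 and 35.6 CPM. Over all libraries after PXGL, the fibroblast sum came mainly from COL1A1 and COL1A2, with medians of 16.5 and 64.6 CPM. COL3A1, LUM and DCN had a median of 0 CPM, and POSTN was at most at 4.43 CPM. The part of these markers in the level of JUN was not tested. ETV5 was at 56.3 and 59.8 CPM in N2B27, 57.3 and 56.3 CPM in XAV and 54.3 and 54.5 CPM in FAX. Against the naive libraries of Ex2 alone, JUN was called higher in all 3 media, by 3.07 ± 0.19 in N2B27, 2.17 ± 0.20 in XAV and 2.19 ± 0.20 in FAX, in comparisons added after the values were seen (21.8%, 19.6% and 21% of all genes called).

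The coating of naive cells made no called difference to the 10 genes: 0 were called between Geltrex and serum by edgeR or by DESeq2, with 2 at an unadjusted edgeR p under 0.05 (0.048% of all genes called). Between the experiments, naive cells on Geltrex differed in 3 of the 10 genes, with the reserve that the library names of those in Ex2 carry d4. ETV1 was at 7.06 and 5.56 CPM in Ex1 and 2.63 and 1.92 CPM in Ex2, ETV5 at 1.32 and 1.79 CPM and 0 and 0.275 CPM, and JUN at 19.9 and 24.03 CPM and 6.58 and 9.88 CPM. These 3 were called lower in Ex2, where 2.34% of all genes were, with log2 fold changes of -1.45 ± 0.35, -3.17 ± 0.79 and -1.38 ± 0.21 (edgeR adjusted p = 0.00385, 0.0145 and 3.09e-05). The ETV5 libraries of Ex2 held 0 and 1 counts, so its fold rests on that floor. Without single libraries of these 2 groups, the value of ETV5 ran over -5.86 to -2.42 and that of ETV1 over -1.69 to -1.21, and the calls of ETV5 (without Ex1 replicate 2 or Ex2 replicate 1) and ETV1 (without Ex2 replicate 2) were lost. The ETV5 call was also lost with DESeq2 (adjusted p = 0.0997).

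On day 4 in N2B27, EGR1 alone among the 10 genes was called between the experiments, lower in Ex2 by a log2 fold change of -1.08 ± 0.31 (edgeR adjusted p = 0.0397; 0.618% of all genes), with 5.19 and 2.12 CPM against 8.02 and 7.84 CPM in Ex1. The response, day 4 N2B27 against naive on Geltrex, was larger in Ex2 for 4 genes, where 2.85% of all genes were called higher in this interaction and 3.63% lower. The differences of the responses were 1.14 ± 0.38 for ETV1, 2.94 ± 0.82 for ETV5, 1.26 ± 0.25 for JUN and 1.12 ± 0.28 for PHLDA1 (edgeR adjusted p = 0.0445, 0.0355, 0.00105 and 0.00784). Of these, JUN was called in all 16 alternatives, while ETV1 lost its call in 11 of 16, ETV5 in 7 and PHLDA1 in 2. With single libraries left out the values were 0.90 to 1.40, 2.21 to 5.63 and 0.74 to 1.58. In other settings, ETV1 lost its call with library totals, no filter and DESeq2 and without the E8 day 2 and 3 libraries (adjusted p = 0.0624, 0.104, 0.0890 and 0.0501), and ETV5 with no filter and DESeq2 (adjusted p = 0.0744 and 0.160). The EGR1 call was lost in 6 of 12 alternatives: without any 1 of 3 libraries, with -0.54 without Ex2 replicate 2, and with no filter, the replicate block and DESeq2 (adjusted p = 0.127, 0.287 and 0.116). Within each experiment the day 4 libraries lay above their own naive libraries for all 10 genes. Heat shock genes, induced by stress and by dissociation, moved between the same groups: the 8 of them summed to 8246 and 8472 CPM in the naive Geltrex libraries of Ex1 and 6585 and 6607 CPM in those of Ex2, and 6 of 8 were called higher in the same interaction. Primitive streak and mesoderm markers summed to 20.8 and 21.7 CPM in naive Geltrex libraries of Ex1 and 2.96 and 4.94 CPM in those of Ex2, and to 62.4 and 62.8 CPM and 31.1 and 40.95 CPM on day 4 in N2B27. In the naive Geltrex libraries, general pluripotency markers summed to 1714 and 1741 CPM in Ex1 and 1323 and 1373 CPM in Ex2, and naive markers to 1580.2 and 1599.9 CPM and 1294 and 1372 CPM. The part of these genes in the result was not tested.

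**Figure D4:**
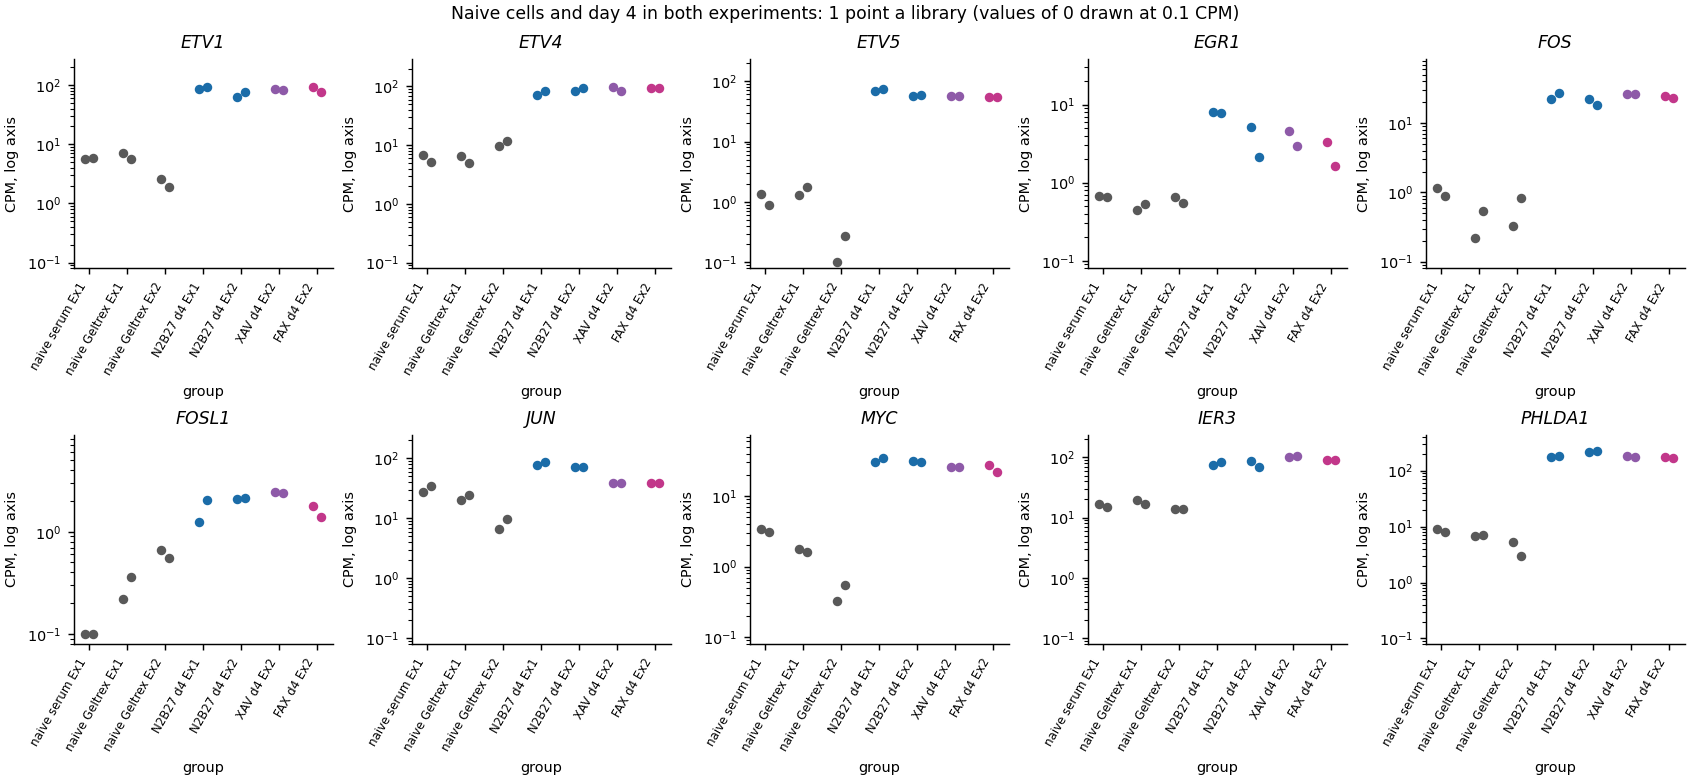
CPM of each of the 10 genes (vertical axis, log scale) in the naive and day 4 groups of Ex1 and Ex2 (horizontal axis); points are single libraries and values of 0 are drawn at 0.1 CPM. The naive Geltrex libraries of Ex2 lie below those of Ex1 for ETV1, ETV5 and JUN, which were called, and for MYC, IER3 and PHLDA1, which were not. They lie above those of Ex1, without a call, for ETV4, EGR1 and FOSL1. For EGR1 and FOSL1 these naive libraries held 1 to 3 counts each, too few to give a direction. Day 4 libraries lie above the naive libraries of their own experiment for all 10 genes.

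Patterns across the 19 groups were compared by the Pearson correlation of group mean log2 CPM, as a description. Between pairs of the 10 genes it was lowest for JUN and ETV4, at 0.318, and stood at 0.946 for ETV1 and ETV4. The genes most like ETV1 among 11426 genes at a mean of at least 5 CPM were PLEKHA5 and FOXD3-AS1 (r = 0.98 for each), those most like ETV4 were SFRP2 and OAZ2 (0.98 and 0.97), and those most like ETV5 were VSNL1 and PHLDA1 (0.99 each). EGR1 was nearest to TCF7L2 and RYK (0.94 and 0.93), FOS to the keratins KRT18 and KRT8 (0.98 each) and FOSL1 to HSD17B12 and ICAM3 (0.95 each). JUN was nearest to ARHGAP35 and IRS1 (0.96 and 0.95), MYC to PHLDA1 and FOXD3 (0.98 each), IER3 to SALL2 and TMEM98 (0.96 each) and PHLDA1 to CAV1 and PTPRZ1 (0.99 each). The 19 groups include 3 naive ones, from which nearly all of the 10 genes differ, and groups of a medium share their cells. Ranked by Spearman correlation, only 1 of these 20 neighbours was named again.

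Other parts of the pathway were read from gene lists. The feedback inhibitors of ERK, which are transcribed on ERK activity and then dampen it, were high in the same libraries: of 9, 8 were tested and all 8 were called higher in each of the 15 comparisons, as were 3.45% of all tested genes, with list medians of 4.69 to 5.37. SPRY4, a Sprouty protein, had 0 counts in every naive library and 26.7 to 56.3 CPM in the others, at least 365-fold higher on day 2 of N2B27 with 3 counts over the naive group as the bound. The phosphatase genes DUSP4 and DUSP6 were at no more than 0.439 and 0.538 CPM in naive libraries and at 21.9 to 72.7 and 17.5 to 212 CPM afterwards. The bound for SPRY4 left the list median unchanged in all 15 comparisons.

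The kinases and adaptors of the cascade themselves, 18 genes all tested, were called in few cases. Of all tested genes, 6.3% were called lower on day 2 of N2B27 and 7.03% on day 8, beside the 9.86% and 16.9% called higher. On day 2 of N2B27, 1 was called higher (HRAS, 1.28 ± 0.45), with a median log2 fold change of -0.16 beside 0.02 for all genes, and on day 8 HRAS was higher (1.33 ± 0.44) and the exchange factor SOS1 lower (-1.13 ± 0.26). Of serum response factor and its 5 cofactors, only SRF itself was called on day 2 of N2B27, with a log2 fold change of -1.26 ± 0.25, and the list median was -0.08 on day 2 and 0.08 on day 8.

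Of 15 immediate early genes outside the 10, 11 were tested. On day 2 of N2B27 (9.86% of all genes called higher and 6.3% lower), 1 was called higher, KLF10 (1.24 ± 0.18), and 2 lower, JUNB (-2.13 ± 0.32) and BTG2 (-1.16 ± 0.42). On day 8 (16.9% and 7.03%), 3 were called higher, FOSL2 (3.61 ± 0.30), KLF10 (1.44 ± 0.17) and ATF3 (1.31 ± 0.20), and JUNB lower (-1.76 ± 0.30). The list median was 0.03 and 0.53 on those days. FOSL2 was at 0.275 to 1.55 CPM in naive libraries, near the detection limit, and 0.805 to 21.3 CPM afterwards, which overlap. JUNB, an AP-1 subunit that can replace JUN, was at 7.57 to 17.8 CPM in naive libraries and 1.65 to 9.55 CPM afterwards, which overlap.

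Among 12 other ETS factors, 10 were tested. FLI1 was called higher and ELF3, an epithelial ETS factor, lower in all 15 comparisons, as 3.45% and 1.04% of all tested genes were, with log2 fold changes of 4.12 ± 0.43 and -4.35 ± 0.21 on day 8 of N2B27. ELF3 went from 58.3 to 94.1 CPM in naive libraries to 2.18 to 16.7 CPM in the others, with no overlap. FLI1 was at 0 to 1.10 CPM in naive libraries and 0.636 to 8.63 CPM in the others, which overlap. Its fold change rests on naive levels near the detection limit. Of 9 genes of the MYC network, MXI1, which competes with MYC for its partner MAX, was called higher in all 15 comparisons, at 1.48 ± 0.29 on day 2 and 2.45 ± 0.26 on day 8 of N2B27.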

How the data were processed

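Libraries were prepared from Shef6 RNA with the QuantSeq 3′ kit. Per the study's methods and the submitters' processing notes, the authors processed reads with an nf-core workflow (FastQC 0.11.9, STAR 2.7.10a, Salmon 1.9.0, hg38), and deposited 1 table of counts per gene, not normalized. Its 38 columns carried the sample names.

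From these counts, edgeR 4.0.16 (R 4.3.3) fitted quasi-likelihood models with TMM scaling after filterByExpr (16674 of 57133 genes, holding 99.6% of counts). Comparisons with naive cells pooled all 6 naive libraries, and N2B27 day 4 both experiments; other comparisons used the 19 groups. SE is the fold change divided by the root of F. A call required a Benjamini–Hochberg adjusted p under 0.05 and an absolute log2 fold change over 1. CPM refers to the library total. The script was tested on simulated data.

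The members and lists were chosen with earlier results of these data known. All 10 members are named; of each list, the counts and up to 3 of the largest called changes per direction in a comparison described; and for each member, the 2 genes with the highest Pearson correlation of group mean log2 CPM (prior count 2). Genes named beyond these were chosen after their values were seen. Alternatives were RLE factors, library totals, other filters, a replicate block, an experiment covariate, other naive references, DESeq2 1.42.0, separate fits, Spearman correlation and leaving out each library; leaving out E8 days 2 and 3, and the comparisons of day 8 with day 2 and with naive cells of 1 experiment, were added after seeing the data.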

Additional observations from a re-analysis of the deposited data

Results flagged for a closer look

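Over 20 tests for a library standing apart within a group of 4 or 6, 1 was positive, and chance gives about 1 in 20. FOSL1 in the first replicate of N2B27 day 4 in Ex1 was at 1.25 CPM, below the other 3 libraries at 2.05, 2.07 and 2.12 CPM, and it rests on 7 counts.

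The response to 4 days of N2B27 differed between the experiments in a test of the interaction for 4 genes, each with the larger response in Ex2: by a log2 difference of 1.14 for ETV1, 2.94 for ETV5, 1.26 for JUN and 1.12 for PHLDA1. For ETV1, ETV5 and JUN the naive Geltrex libraries of Ex2 were lower than those of Ex1, and the day 4 libraries of the experiments were not called different. Both naive libraries of Ex2 had summed heat shock genes of 6585 and 6607 CPM, beside 8246 and 8472 CPM in Ex1. Their primitive streak and mesoderm markers summed to 2.96 and 4.94 CPM beside 20.8 and 21.7 CPM, general pluripotency markers to 1323 and 1373 CPM beside 1714 and 1741 CPM, and naive markers to 1294 and 1372 CPM beside 1580.2 and 1599.9 CPM. The experiment and its naive cultures cannot be told apart.

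The courses in N2B27 and E8 differed by the interaction of medium and day for 6 genes, with edgeR adjusted p = 0.000282 for ETV1, 0.00276 for ETV5, 0.00122 for EGR1, 0.0102 for MYC, 0.00303 for IER3 and 0.0416 for PHLDA1. MYC stood at 31.7 and 36.9 CPM on day 3 of N2B27 and 20.99 and 20.8 CPM on day 3 of E8, but at 22.3 and 20.8 CPM and 33.7 and 34.1 CPM on day 6. IER3 was at 50.5 and 76.4 CPM and 109 and 100.04 CPM on day 3. In both genes the order of the media changed over the course. In E8 the day 3 replicates were not nearest to each other, and day 2 had totals of 3143033 and 3385716 counts, among the lowest.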

How the results depend on the processing

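Of 172 pairs of a gene and a comparison examined, 148 kept their direction and their side of the threshold under every alternative run, 19 lost a call under at least 1, 4 gained one and 1 changed sign. Of the 143 calls against naive cells, 140 held throughout. The count of 143 moved to between 126 and 145 under the 11 alternatives other than leaving out a single library. The lowest came without the E8 day 2 and day 3 libraries and so with 2 comparisons fewer. With 1 library left out the count was 142 to 147. Against naive cells, 0 were called lower under any of these alternatives. JUN on day 2 of N2B27 was at -0.06 and at -0.20 to 0.16 when a library was left out, and at -0.59 against serum libraries alone, turning positive without either serum replicate (0.03 and 0.16) or Geltrex replicate 2 of Ex1 (0.01).

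The 5 calls between media became 1 to 7 when a library was left out, the lowest without replicate 1 of N2B27 day 8. The 9 calls between consecutive days became 4 when each comparison was fitted to its own libraries and 5 without E8 days 2 and 3, where fewer comparisons were possible, and 7 to 11 when a library was left out. The 8 calls between coatings and experiments became 5 with no filter, 4 with DESeq2 and 4 to 8 when a library was left out. They were 4 without replicate 2 of naive Geltrex in Ex1 or in Ex2, and 5 without replicate 1 of N2B27 day 4 in Ex1, replicate 2 of it in Ex2 or replicate 1 of naive Geltrex in Ex2. The cause was not tested. The 6 differing courses numbered between 4 and 6 under the alternatives that kept all replicates and 5 to 7 with a library left out, and 0 were called among N2B27, XAV and FAX under any of these. An adjusted p that DESeq2 gave as missing was not counted as a lost call.

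Replicate numbers did not pair the libraries: over 111 pairs of groups of 1 experiment, deviations of same-numbered libraries correlated at -0.35 to 0.26, with 7 over 0.1. With the replicate block, the counts were 145 against naive, 5 between media, 0 in Ex2, 9 between days, 7 between coatings and experiments and 5 courses. Of the 20 genes named as most alike, 1 was also named by Spearman correlation. Depth limits EGR1 and FOSL1 most, with at most 3 counts in any naive library.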

Other observations

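Beside the counts below, 9.86% of all tested genes were called higher and 6.3% lower on day 2 of N2B27, 16.9% and 7.03% on day 8, and 2.85% and 3.63% in the interaction of response and experiment. Of 3 general pluripotency genes, 1 was called higher against naive cells on day 2 of N2B27 and 0 on day 8, and NANOG was at 749 to 1169 CPM in naive libraries and 678 to 1470.1 CPM afterwards. The 6 fibroblast markers, 4 of them tested, summed to 1.97 to 4.28 CPM in naive libraries and 17.8 to 183 CPM afterwards, with COL1A1 at 1.77 to 68.4 CPM and COL1A2 at 14.6 to 152 CPM after PXGL, while LUM, DCN and COL3A1 had a median of 0 CPM. Of 5 tested trophectoderm markers, 1 was called higher on day 2 of N2B27, and on day 8 4 were higher and 1 lower. Of 3 tested amnion markers, 0 and 2 were called higher on those days by edgeR.

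Among the naive markers, 3 of 8 were called lower and 1 higher on day 2 of N2B27 and 8 of 8 lower on day 8, while 6 and 8 of 8 primed or formative markers were called higher. On day 2 of N2B27 the naive markers summed to 981 and 1122 CPM, below every naive library. Heat shock genes were called higher in 1 and lower in 0 of 8 on day 2 of N2B27 and lower in 3 of 8 on day 8. In the interaction of the N2B27 day 4 response with the experiment, 3 of 10 tested other ETS factors were called higher and 2 of 8 tested feedback inhibitors lower.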
